A study of Mus musculus with 12 samples.

Results

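The amino acid transporter families Slc1, Slc3, Slc6, Slc7, Slc36, Slc38 and Slc43 were followed in kidney cortex by RNA-seq. Gene symbols were matched to these family names among 23183 symbols, which gave 64 symbols. Of these, 3 end in "os" and name overlapping or neighbouring transcripts and no carrier (Slc6a19os, Slc7a6os and Slc36a1os), which left 61 carriers. A carrier was described when at least 3 of the 12 libraries had at least 0.5 FPKM (sequenced fragments per 1 kb of a gene, adjusted for library size), and 41 carriers passed. They comprised 5 of 7 in Slc1, 2 of 2 in Slc3, 11 of 19 in Slc6, 10 of 15 in Slc7, 2 of 4 in Slc36, 8 of 11 in Slc38 and 3 of 3 in Slc43. Of the 41 carriers, 38 would also have passed on the libraries of either kidney alone, Slc1a3 and Slc38a4 passed on the contralateral libraries alone, and Slc43a1 passed only with all libraries together. Just inside the level were Slc43a1, Slc1a3 and Slc38a4, whose third-highest FPKM was 0.598, 0.710 and 0.796. Just outside were Slc6a12, Slc7a14 and Slc7a3 with 0.461, 0.402 and 0.369, and 3 of the 20 carriers below the level were listed at 0 in every library.

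All mice were male C57BL/6N and 6 to 7 weeks old when the ureter of a single kidney was closed (unilateral ureteral obstruction, UUO). Cortex was taken on day 7 from the obstructed kidney (UUO) and from the contralateral kidney (CL), which has an open ureter but sits in the same operated animal. The genotypes were Acot12+/+ and Acot12-/-, the latter carrying in every cell an allele mutated by an RNA-guided endonuclease, so its effects are not restricted to the kidney. Each of the 4 groups holds 3 libraries, and the question was how obstruction and the loss of Acot12, an acyl-CoA thioesterase, alter the fibrosing kidney. Nothing in the labels says that replicates are separate animals, so p-values measure the spread between these libraries.

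Depth, recovered from the steps between low FPKM values, was 12400000 to 16280000 fragments in CL and 18240000 to 22980000 in UUO libraries, so that the value of 1 fragment over 1 kb was 0.0435 to 0.0807 FPKM. Acot12 itself ranged from 52.7 to 78.1 FPKM (Acot12+/+) and from 6.801 to 9.15 (Acot12-/-) on the CL side, and from 9.98 to 21.2 and from 1.80 to 3.86 on the UUO side, so every Acot12-/- library lay below every Acot12+/+ library of the same side. The summed FPKM of 11 proximal tubule markers was 2535 to 6298 in CL libraries and 357 to 1337 in UUO libraries. Log2 values of replicates correlated at 0.977 to 0.993 in 3 groups and at 0.949 to 0.985 in Acot12-/- CL, where replicate 2 stands apart from replicates 1 and 3.

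Free amino acids are filtered at the glomerulus and taken back almost completely by the proximal tubule. Carriers of the brush border move them from the urine into the cell, some of them as a light chain bound to the heavy chain encoded by Slc3a1, and exchangers of the basolateral membrane, often bound to the heavy chain encoded by Slc3a2, pass them on to the blood. Other carriers of the same families bring amino acids into growing, stressed or immune cells, move them across the lysosomal membrane, or carry creatine, taurine and neurotransmitters.

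In the CL kidney the carriers were led by Slc7a13, which takes up aspartate, glutamate and cystine in the late proximal tubule. The plot of summed levels shows what the 41 carriers added up to in each library. In Acot12+/+ CL libraries they summed to 1817, 1365 and 1527 FPKM and in Acot12-/- CL libraries to 2115, 2005 and 1932. In UUO libraries the sums were 556, 597 and 678 (Acot12+/+) and 718, 513 and 705 (Acot12-/-), so all 6 UUO libraries lay below all 6 CL libraries. The mean difference was -1.51 on the log2 scale, a 2.85-fold fall (two-sided exact permutation test of 6 against 6, p = 0.00216, the smallest it can give). Within a genotype, an exact permutation test of 3 against 3 cannot go below p = 0.1, and that value was reached in both with log2 differences of -1.36 and -1.66. Within the 6 same-numbered pairs of kidneys the sum was lower in UUO in all 6 (exact permutation of signs, p = 0.0312, the smallest it can give). Total FPKM was itself lower in every UUO library (491078 to 686425) than in every CL library (799670 to 977981), and with equal totals the difference of the 41 carriers was -0.87 (exact permutation p = 0.00216). Without Slc7a13 the other 40 carriers differed by -1.02 as deposited (exact permutation p = 0.00216) but by -0.38 with equal totals (p = 0.0628 by the same exact test), which was 0.02 in Acot12+/+ and -0.78 in Acot12-/- mice. As a share of total FPKM these 40 carriers were 0.0885% to 0.123% in Acot12+/+ CL libraries and 0.106% to 0.111% in Acot12+/+ UUO libraries, which overlapped.

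Slc7a13 made up 40.2% of the mean sum on the CL side and 6.33% on the UUO side of Acot12+/+ mice, and 27.0% and 8.52% in Acot12-/- mice. After obstruction the first place went to Slc6a6, the taurine carrier (named here after its values were seen), with a mean of 55.2 FPKM in Acot12+/+ and 62.1 in Acot12-/- UUO kidneys, followed by Slc3a2 with 52.9 FPKM in Acot12+/+ and by Slc6a18 with 59.9 in Acot12-/- kidneys. In each genotype the libraries of these neighbours in the order overlapped. By family, Slc7 had the largest difference in summed FPKM, -2.602 as deposited and -1.96 with equal totals (exact permutation p = 0.00216 for both). Slc7a13 alone held 631 of the mean 779 FPKM of this family in Acot12+/+ CL and 545 of 845 in Acot12-/- CL libraries. Gene by gene, the median difference of the 10 Slc7 carriers on log2(FPKM + 1) was 0.65 in Acot12+/+ and 0.17 in Acot12-/- kidneys. For Slc1, Slc3, Slc6 and Slc36 the differences ran from -1.296 to -0.87 as deposited (exact permutation p = 0.00216 each) and from -0.65 to -0.23 with equal totals, where Slc3 and Slc6 had exact permutation p = 0.0325 and 0.0281 and Slc1 and Slc36 had 0.141 and 0.136. With equal totals Slc1, Slc3, Slc6 and Slc36 differed by 0.11, -0.10, -0.12 and -0.135 in Acot12+/+ mice. In Acot12-/- mice they differed by -0.57, -1.21, -0.80 and -0.41 in the same order. Within the same-numbered pairs at equal totals they had p = 0.312, 0.125, 0.0938 and 0.156 (exact permutation of signs). The direction of Slc38 turned with the scaling, from -0.22 as deposited (exact permutation p = 0.026) to 0.42 with equal totals (exact permutation p = 0.00649). Slc43 turned too, from -0.26 (exact permutation p = 0.0952, and 0.0312 within pairs, all 6 of which were lower) to 0.38 (exact permutation p = 0.026). Within pairs at equal totals Slc38 and Slc43 each had p = 0.0625 (exact permutation of signs).

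Gene by gene, carriers of the same families differed in direction after obstruction. Differences are on log2(FPKM + 1), which understates changes of genes at low FPKM, and a carrier was called when its limma p, adjusted over 14260 genes by the Benjamini-Hochberg method, was under 0.05. In Acot12+/+ kidneys 11 carriers were higher and 13 lower after UUO, with 17 not called; of all genes tested 23.9% were called higher and 22.6% lower. In Acot12-/- kidneys 10 were higher and 16 lower, with 15 not called, against 27.5% and 25.6% of all genes. The median difference over the 41 carriers was -0.12 and -0.26 in the respective genotypes, beside 0.027 and 0.022 over all genes. Both genotypes called the same 7 carriers higher and the same 13 lower, no carrier was called in opposite directions, and 11 were called in neither. These comparisons share no library but use an estimate of the spread taken from all 12 libraries. The share of all genes called alike in both genotypes was not counted. In Acot12+/+ mice the UUO libraries all lay above the CL libraries for 14 carriers and all below for 17, against 35.7% and 34.1% of all genes. In Acot12-/- mice they did so for 10 and 15, against 29% and 26.2%. When total FPKM was made equal in all libraries, the median of all genes moved up by 0.59 and 0.44, and the counts became 17 higher and 7 lower in Acot12+/+ kidneys, against 55.9% and 7.63% of all genes, and 15 higher and 12 lower in Acot12-/- kidneys, against 46.6% and 11.1%. Without Acot12-/- CL replicate 2 they were 13 and 14 in Acot12+/+ kidneys, against 30.7% and 29.3% of all genes, and 10 and 19 in Acot12-/- kidneys, against 30.2% and 31.9%.

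**Figure D1:**
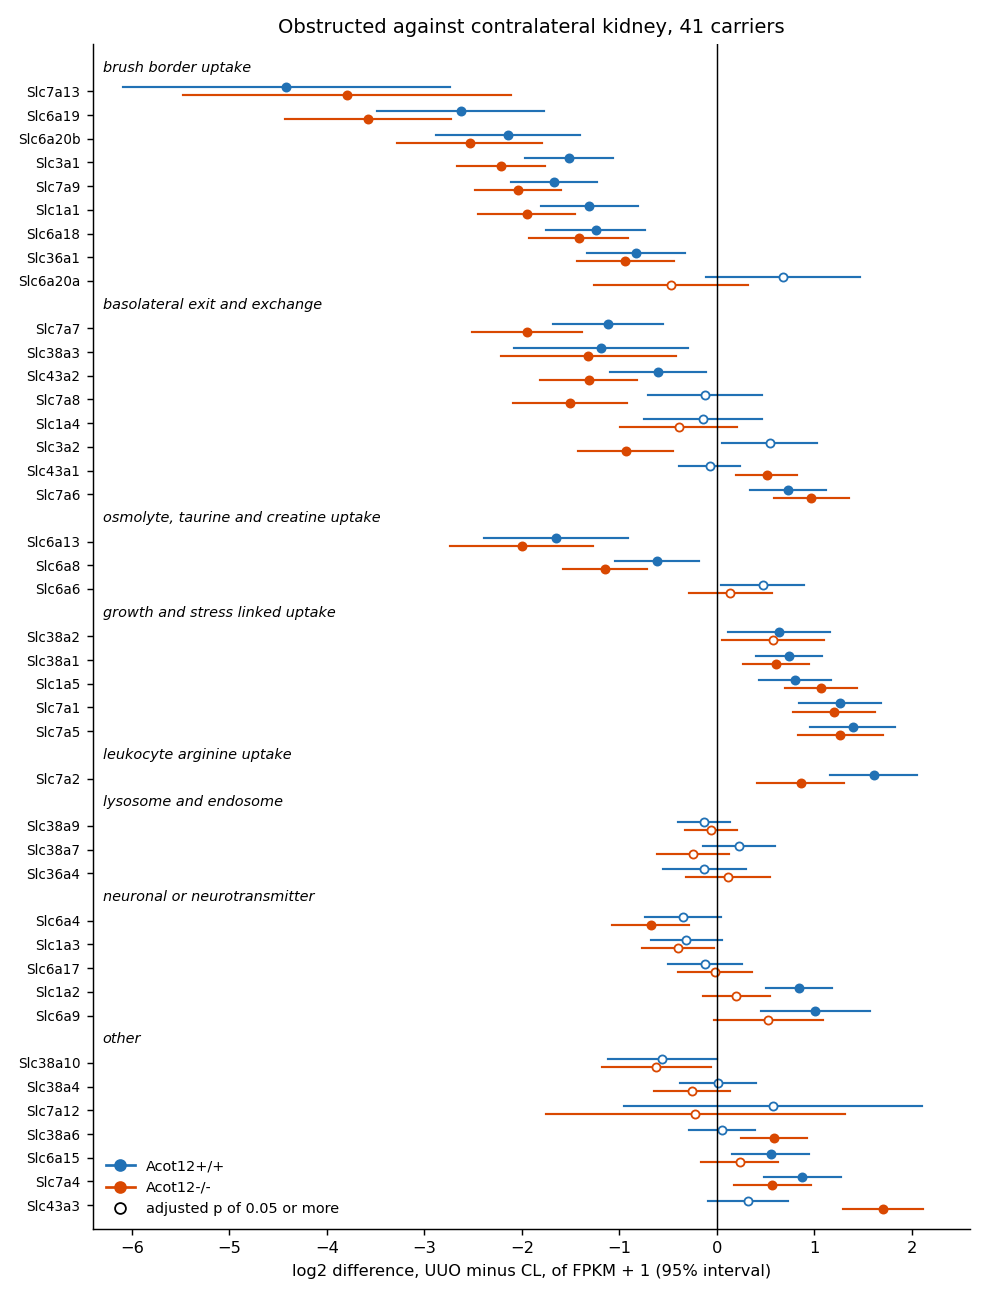
Difference between UUO and CL libraries on log2(FPKM + 1) (x axis) with its 95% interval for each of the 41 carriers (y axis, grouped by role), in Acot12+/+ (blue) and Acot12-/- (orange) kidneys; open circles did not pass an adjusted p of 0.05. Brush border carriers lie left of 0 in both genotypes except Slc6a20a in Acot12+/+ kidneys, and the growth and stress linked carriers all lie right of it.

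The brush border carriers were the group with the most falls, with roles assigned when earlier results of these data were known. Of 9, 8 were called lower in Acot12+/+ and the same 8 in Acot12-/- kidneys, with medians of -1.52 and -2.04. Slc7a13 (GRCm38, chr4:19818725-19842218, plus strand) stood at 848, 500 and 545 FPKM (CL) and 13.1, 18.99 and 83.7 (UUO) in Acot12+/+ mice. In Acot12-/- mice it had 531, 668 and 438 in CL and 65.3, 8.61 and 90.9 in UUO libraries. The groups did not overlap, and the UUO libraries varied widely among themselves, from 8.61 to 90.9 FPKM. The log2 difference was -4.42 for Acot12+/+ (adjusted p = 0.00068) and -3.79 for Acot12-/- mice (adjusted p = 0.00137), each with an SE of 0.771. Under the scaling to equal totals it remained called in both genotypes.

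Slc6a19, the main neutral amino acid carrier of the brush border, stood at 21.9, 26.2 and 46.1 FPKM (CL) and 4.09, 3.03 and 5.04 (UUO) in Acot12+/+ mice. In Acot12-/- libraries it had 109, 106 and 65.5 in CL and 10.9, 2.94 and 8.802 in UUO. All UUO libraries lay far below all CL libraries, with log2 differences of -2.63 and -3.58 (adjusted p = 0.000235 and 1.84e-05). Slc6a18, a second neutral amino acid carrier, is its neighbour on chromosome 13 and fell too. It went from 158, 112 and 113 to 47.1, 58.5 and 53.03 FPKM in Acot12+/+ and from 148, 136 and 190.4 to 66.3, 40.3 and 72.99 in Acot12-/- libraries. The groups did not overlap (log2 differences of -1.24 and -1.42, adjusted p = 0.0011 and 0.000317), and the Acot12+/+ call of Slc6a18 was lost under the scaling to equal totals (-0.52, adjusted p = 0.052). In GRCm38 the genes lie at chr13:73661752-73678023 (Slc6a18) and chr13:73679745-73704865 (Slc6a19), both on the minus strand. Tmem27 encodes collectrin, the partner that brings these carriers to the renal membrane, and its mean went from 2463 to 385 FPKM in Acot12+/+ and from 3175 to 516 in Acot12-/- kidneys (log2 differences of -2.68 and -2.64, adjusted p = 4.29e-05 and 2.59e-05).

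The pair Slc6a20a and Slc6a20b, members of the Slc6 family that lie side by side on chromosome 9, parted. Slc6a20b (chr9:123590800-123632565, minus strand) stood at 46.4, 42.1 and 53.6 FPKM (CL) and 8.302, 8.56 and 13.6 (UUO) in Acot12+/+ mice, and 79.9, 74.9 and 58.9 (CL) and 18.2, 5.32 and 14.5 (UUO) in Acot12-/- mice. Its groups did not overlap, and it fell (log2 differences of -2.14 and -2.54, adjusted p = 0.000355 and 7.37e-05). Slc6a20a (chr9:123634770-123678885, minus strand) had 3.28, 1.46 and 4.24 (CL) and 3.81, 6.05 and 5.63 (UUO) in the Acot12+/+ and 8.23, 4.21 and 4.78 (CL) and 5.48, 4.98 and 1.704 (UUO) in the Acot12-/- libraries. Its groups overlapped, and its differences of 0.68 and -0.47 were not called (adjusted p = 0.144 and 0.297). The transcripts share stretches of 50 identical bases (15.3% of those of Slc6a20a and 7.24% of those of Slc6a20b), so the split of reads between them is uncertain.

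Slc3a1, the heavy chain of the cystine and dibasic amino acid carrier, and its light chain Slc7a9 fell together. Slc3a1 stood at 177, 107 and 165 FPKM (CL) and 45.5, 49.02 and 57.8 (UUO) in Acot12+/+ mice, and 261, 213 and 240.1 (CL) and 61.1, 44.3 and 47.1 (UUO) in Acot12-/- mice. Slc7a9 had 52.8, 68.3 and 60.1 (CL) and 15.9, 18.1 and 20.7 (UUO) in Acot12+/+, and 104, 115 and 113 (CL) and 33.2, 18.4 and 28.98 (UUO) in Acot12-/- libraries. In neither gene did a UUO library reach a CL library of its genotype. Slc3a1 fell (log2 differences of -1.52 and -2.22, adjusted p = 0.00013 and 6.55e-06) and Slc7a9 likewise (-1.67 and -2.04, adjusted p = 6.13e-05 and 9.64e-06).

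The stretch upstream of Slc3a1 is shown because, among the 28 described carriers with an entry in the RefSeq promoter table (GRCm38.p6, from 250 bases before to 50 after each start, 43 promoters), it alone holds the letters CAAAGTCCA. These letters are the core bound by HNF4, a nuclear receptor of the proximal tubule, and both strands were searched. They occur in 0.475% of 32851 promoters. The match starts 39 bases before the start. The stretch printed, with the matched letters in capitals, lies at chr17:85028298-85028326 on the plus strand.
Slc3a1: cttggctggaCAAAGTCCAgccatgatta
The letters TGATGNAAN of the amino acid response element, to which ATF4 binds, occur in 3.95% of promoters and were found for Slc1a4 and Slc7a7. Slc7a7 has matches before more than a single annotated start, and the one shown starts 141 bases before a start. The stretch printed for it lies at chr14:54418067-54418095 on the minus strand.
Slc7a7: cgcttgggctTGATGAAAGgttcactggg
The letters GTTAATNAT of the HNF1 site, present in 0.801% of promoters, were in none of the 43 windows. A match describes the sequence and shows no binding.

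The remaining members of the group carry acidic amino acids (Slc1a1) and, with protons, small neutral ones (Slc36a1). Slc1a1 went from 76.5, 58.4 and 72.9 to 25.3, 24.1 and 32.8 FPKM in Acot12+/+ and from 97.3, 105 and 89.3 to 33.5, 16.4 and 26.2 in Acot12-/- libraries. Slc36a1 went from 12.3, 15.3 and 15.8 to 6.61, 9.14 and 7.38 and from 20.2, 10.2 and 15.8 to 8.89, 5.73 and 7.56. Neither gene's groups overlapped. Slc1a1 fell (log2 differences of -1.31 and -1.95, adjusted p = 0.000686 and 2.92e-05), and Slc36a1 likewise (-0.83 and -0.94, adjusted p = 0.0113 and 0.00458), and the calls of Slc36a1 were lost in both genotypes under the scaling to equal totals (differences of -0.16 and -0.44). In bulk cortex fewer proximal tubule cells and less RNA per cell cannot be told apart. Of 11 proximal tubule markers, 10 were lower in Acot12+/+ and 11 in Acot12-/- UUO kidneys, with medians of -1.70 and -2.51, and their part in the falls of the carriers was not tested.

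**Figure D2:**
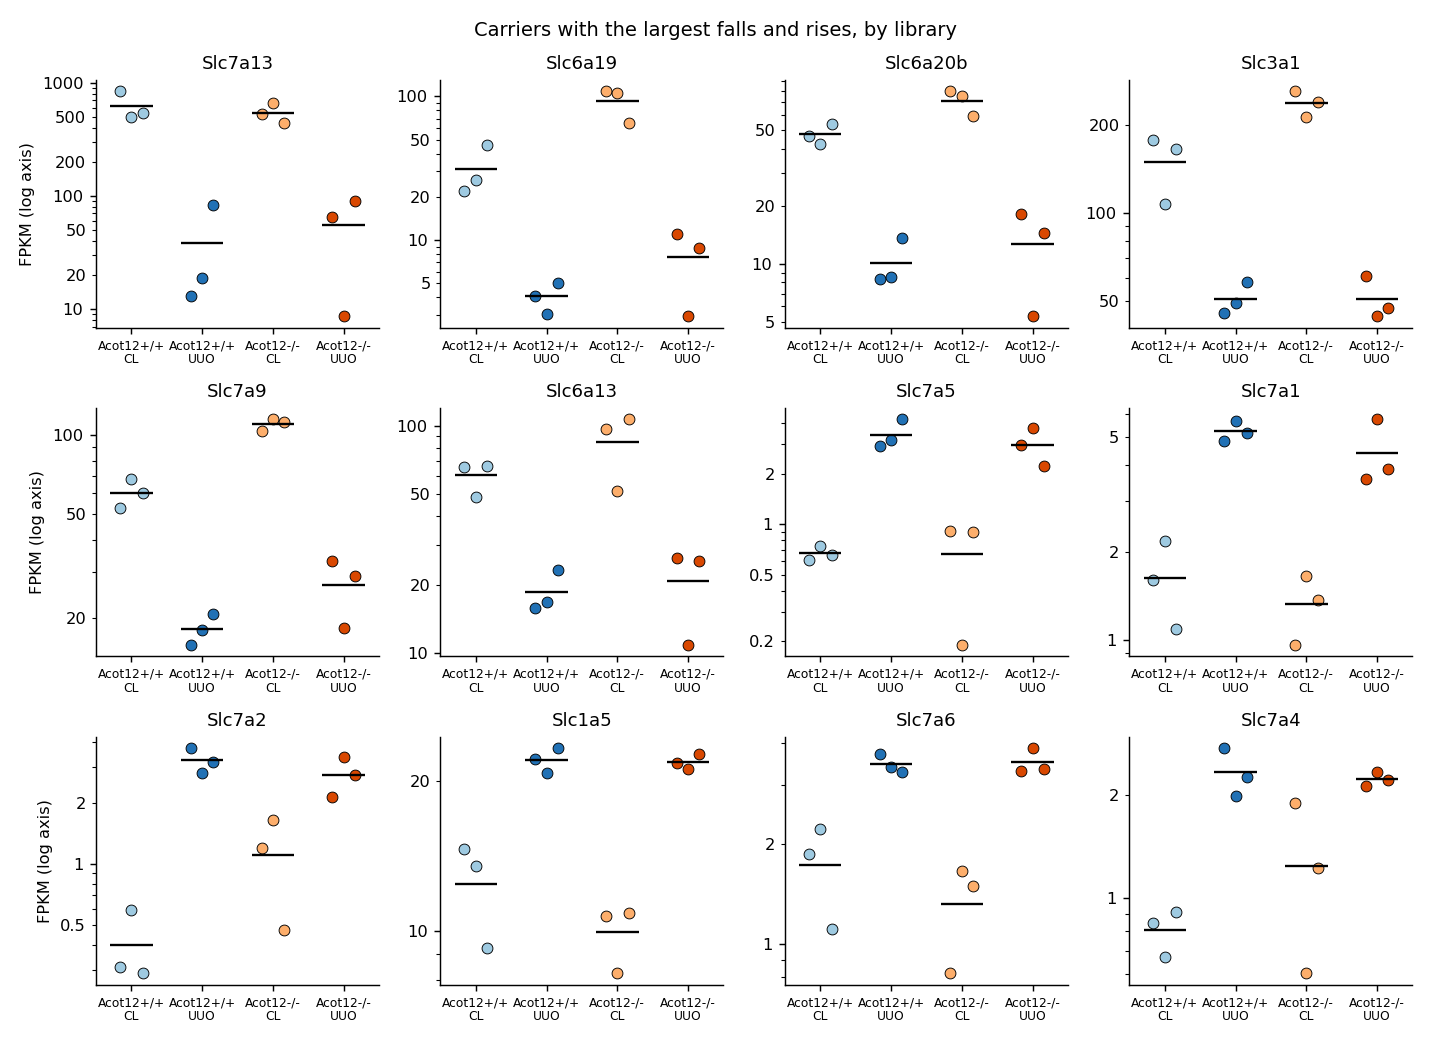
FPKM (y axis, log scale) in the 12 libraries by group (x axis) for the 6 carriers with the largest falls and the 6 with the largest rises called in both genotypes; points are libraries and lines the means of 3. In the 6 falling carriers all UUO points lie below all CL points of the same genotype, and in the rising ones all lie above.

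Basolateral carriers were mixed. Of 8, 3 were lower and 1 higher in Acot12+/+ kidneys (median -0.13), and 5 were lower and 2 higher in Acot12-/- kidneys (median -1.13). Slc7a7, which releases dibasic amino acids to the blood, stood at 53.2, 71.8 and 59.4 FPKM (CL) and 35.8, 24.6 and 23.6 (UUO) in Acot12+/+ mice, and 117, 110.4 and 126 (CL) and 35.6, 18.5 and 40.04 (UUO) in Acot12-/- mice. No UUO library reached a CL library, and the log2 differences were -1.12 and -1.95 (adjusted p = 0.00401 and 6.97e-05). Slc43a2, a carrier of large neutral amino acids, went from 16.5, 18.1 and 22.6 to 12.4, 11 and 12.97 in Acot12+/+ and from 42.6, 23.2 and 32.5 to 14.97, 9.14 and 13.1 in Acot12-/- libraries. Its groups did not overlap, with log2 differences of -0.60 and -1.32 (adjusted p = 0.0452 and 0.00043), and the Acot12+/+ value turned to 0.09 under the scaling to equal totals. The Acot12+/+ call was also lost when any single library of Acot12+/+ mice was left out, without Acot12-/- CL replicate 3 or without Acot12-/- UUO replicate 3 (-0.70 to -0.48, adjusted p = 0.0503 to 0.158). Slc38a3, the glutamine carrier of the late proximal tubule, fell (log2 differences of -1.19 and -1.32, adjusted p = 0.0319 and 0.0173), with overlapping groups in Acot12-/- kidneys. Its call was lost in Acot12+/+ kidneys without CL replicate 1 or 3 or UUO replicate 1 or 2 (-1.29 to -0.95, adjusted p = 0.0529 to 0.122). In Acot12-/- kidneys it was lost without CL replicate 1 or 3 or UUO replicate 2 (-1.15 to -0.86, adjusted p = 0.0574 to 0.0806). Under the scaling to equal totals Slc38a3 was called in neither genotype (-0.53 and -0.82), and Slc7a7 only in Acot12-/- kidneys (-0.40 and -1.41). Slc7a6, an exchanger that trades dibasic for neutral amino acids in many tissues, rose in both genotypes. It had 1.86, 2.21 and 1.11 (CL) and 3.71, 3.39 and 3.28 (UUO) FPKM in Acot12+/+ and 0.82, 1.66 and 1.49 (CL) and 3.29, 3.86 and 3.35 (UUO) in Acot12-/- libraries, with rises of 0.73 and 0.97 and no overlap (adjusted p = 0.00546 and 0.000678). Slc1a4, a carrier of small neutral amino acids, was called in neither genotype with all libraries. Without Acot12-/- CL replicate 2 it was called lower by limma in Acot12-/- kidneys (-0.76, adjusted p = 0.00541).

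The heavy chain Slc3a2 had differences of opposite sign in the genotypes. It stood at 29.7, 37.7 and 40.99 FPKM (CL) and 44.8, 54.3 and 59.7 (UUO) in Acot12+/+ mice, and 112, 65.5 and 94.8 (CL) and 49.5, 36.2 and 53.7 (UUO) in Acot12-/- mice. Acot12+/+ UUO libraries lay above their CL libraries and Acot12-/- UUO libraries below theirs, and the highest values of all were those of Acot12-/- CL. The difference of 0.54 in Acot12+/+ kidneys was not called (adjusted p = 0.0652; 0.03 with the kidneys of a mouse as a block, and 0.000179 under the scaling to equal totals), and the difference of -0.94 in Acot12-/- kidneys was (adjusted p = 0.00385), though not under the scaling to equal totals (-0.40, adjusted p = 0.122). Its light chain Slc7a8, which exchanges neutral amino acids, had 11.6, 16.8 and 21.7 (CL) and 13.6, 13.9 and 17.1 (UUO) in Acot12+/+ and 70.6, 43.6 and 42.8 (CL) and 23.3, 12.7 and 17.3 (UUO) in Acot12-/- libraries. The Acot12+/+ groups overlapped (difference -0.12, adjusted p = 0.729), whereas the Acot12-/- UUO libraries all lay below their CL libraries (-1.51, adjusted p = 0.000547).

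Heavy and light chains need each other at the membrane, so 5 pairs were compared as the log2 ratio of FPKM + 1 over 6 UUO and 6 CL libraries, with two-sided exact permutation p-values adjusted over the 5. The ratio of Slc7a9 to Slc3a1 ranged from -1.73 to -0.64 in CL and from -1.46 to -0.68 in UUO libraries. These ranges lay on top of each other, and the difference was 0.0091 (adjusted p = 0.97). Slc7a13 against Slc3a1 fell by 2.24 (adjusted p = 0.00722), with 5 of 6 UUO libraries below every CL library. Against Slc3a2, Slc7a5 rose by 1.53 (adjusted p = 0.00541) and Slc7a7 fell by 1.34 (adjusted p = 0.00541), both with all 6 UUO libraries outside the range of CL. The mean ratio of Slc7a5 to Slc3a2 went from -4.46 to -3.61 in Acot12+/+ and from -5.78 to -3.58 in Acot12-/- kidneys. Slc7a5 stood at 0.191 to 0.915 FPKM in CL libraries, so the added 1 weighs on its ratio there. Slc7a8 against Slc3a2 fell by 0.62 (adjusted p = 0.0108), with 5 of 6 UUO libraries below every CL library. When the signs of the 6 same-numbered pairs were permuted instead, none of the 5 passed after adjustment (exact p = 0.0521 for the 3 pairs with Slc3a2, 0.0781 for Slc7a13 and 0.969 for Slc7a9), where 0.0312 is the smallest unadjusted p.

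**Figure D3:**
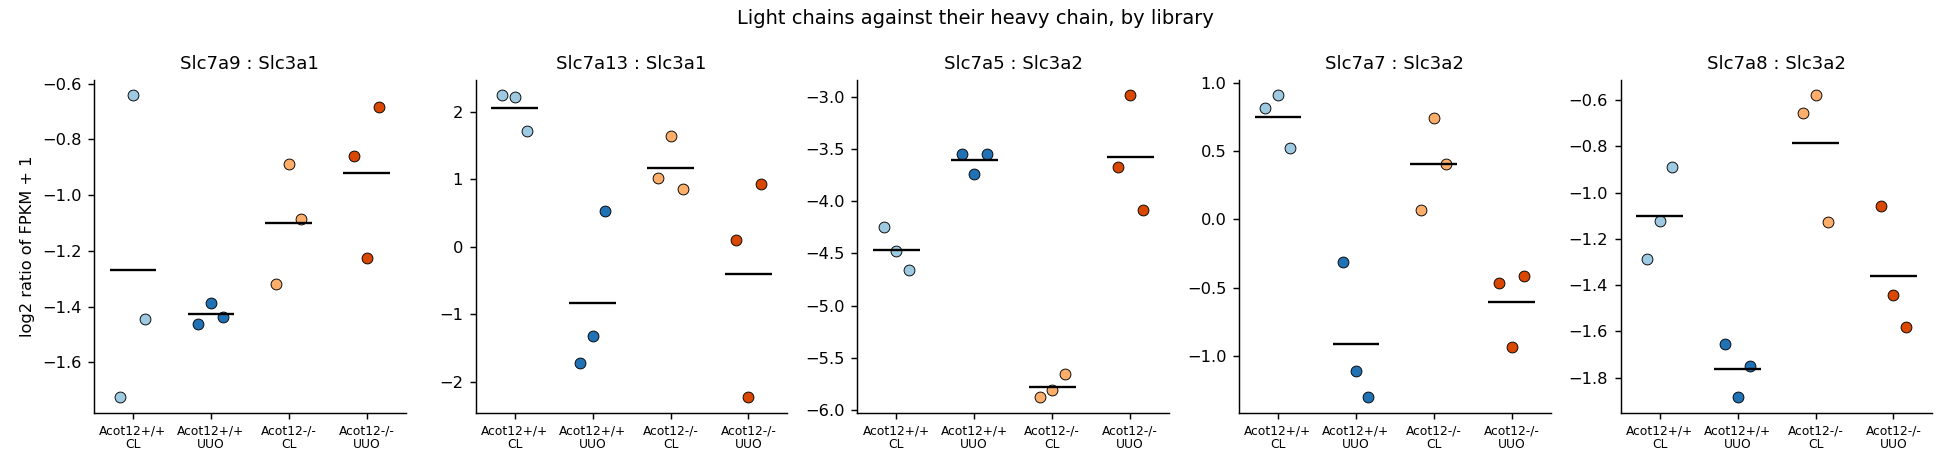
Log2 ratio of FPKM + 1 between a light chain and its heavy chain (y axis) in the 12 libraries by group (x axis); points are libraries and lines the means of 3. The ratio of Slc7a9 to Slc3a1 covers the same range on both sides, while Slc7a5 to Slc3a2 is higher and Slc7a7 to Slc3a2 lower in all 6 UUO libraries.

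Carriers linked to growth and stress moved the other way. All 5 were called higher in Acot12+/+ and 4 in Acot12-/- UUO kidneys, with medians of 0.80 and 1.07. These counts depend on which carriers were placed in the group, which was set with earlier results of these data known. Slc3a2, the heavy chain of Slc7a5 (0.54, not called, and -0.94), and Slc1a4 (-0.14 and -0.39, not called) were grouped as basolateral, as was Slc7a6, which rose. Slc7a5, the light chain for leucine and other large neutral amino acids, stood at 0.614, 0.738 and 0.657 FPKM (CL) and 2.91, 3.15 and 4.21 (UUO) in Acot12+/+ mice, and 0.915, 0.191 and 0.898 (CL) and 2.96, 3.72 and 2.22 (UUO) in Acot12-/- mice. Its lowest value was that of Acot12-/- CL replicate 2, and the UUO libraries lay above all CL libraries (rises of 1.40 and 1.26, adjusted p = 0.000185 and 0.00024). Slc7a1, the common carrier of arginine and lysine, went from 1.61, 2.19 and 1.09 to 4.85, 5.68 and 5.15 in Acot12+/+ and from 0.961, 1.66 and 1.37 to 3.57, 5.73 and 3.88 in Acot12-/- libraries. It rose by 1.26 and 1.2 without overlap (adjusted p = 0.000267 and 0.000259). Slc1a5, a glutamine carrier of dividing cells, had 14.7, 13.5 and 9.24 (CL) and 22.1, 20.8 and 23.3 (UUO) in Acot12+/+ and 10.7, 8.24 and 10.9 (CL) and 21.7, 21.2 and 22.6 (UUO) in Acot12-/- libraries. Its UUO libraries were tightly grouped and all above CL (0.80 and 1.07, adjusted p = 0.0024 and 0.000247).

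Slc38a1 and Slc38a2 take up glutamine and other small neutral amino acids with sodium. Slc38a1 rose by 0.74 and 0.61 (adjusted p = 0.00225 and 0.00583). Slc38a2 stood at 22.6, 20.4 and 14.96 FPKM (CL) and 29.2, 32.5 and 29.2 (UUO) in Acot12+/+ mice, and 13.4, 27.5 and 14.1 (CL) and 23.9, 28.8 and 26.7 (UUO) in Acot12-/- mice. Acot12-/- CL replicate 2, at 27.5, overlapped the UUO libraries. The rise of 0.64 in Acot12+/+ kidneys was close to the threshold (adjusted p = 0.0447, and 0.0529 with median-ratio size factors, a scaling by the median gene), and the difference of 0.58 in Acot12-/- kidneys was not called (adjusted p = 0.0604, and 0.034 with the kidneys of a mouse as a block). The Acot12+/+ call was lost without CL replicate 2 or 3 of Acot12+/+ mice or without any single UUO library of either genotype (0.48 to 0.69, adjusted p = 0.0543 to 0.172). Without Acot12-/- CL replicate 2 the Acot12-/- difference was 0.89 and was called (adjusted p = 0.000599).

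Slc7a2, an arginine carrier that activated macrophages also use, stood at 0.309, 0.592 and 0.289 FPKM (CL) and 3.74, 2.81 and 3.199 (UUO) in Acot12+/+ mice, and 1.204, 1.66 and 0.475 (CL) and 2.14, 3.37 and 2.75 (UUO) in Acot12-/- mice. UUO libraries lay above CL libraries in both genotypes, with rises of 1.61 and 0.86 (adjusted p = 8.63e-05 and 0.00391). Macrophage markers were also higher after UUO, 8 of 9 in Acot12+/+ and 9 of 9 in Acot12-/- kidneys. Their summed FPKM was 138 to 377 in CL and 1779 to 1898 in UUO libraries, with no marker at 0 in every library of a group. Between the genotypes in CL the directions differed. The summed FPKM of the markers was 138 to 254 in Acot12-/- and 361 to 377 in Acot12+/+ CL libraries. Slc7a2 was higher in Acot12-/- CL kidneys by 0.56 and was not called (adjusted p = 0.168). The part of macrophages in the rise of Slc7a2 after UUO was not tested. Slc7a4, a relative of the arginine carriers whose substrate is not established, rose by 0.88 and 0.57 (adjusted p = 0.00212 and 0.0201) from 0.846, 0.673 and 0.909 to 2.75, 1.99 and 2.25 in Acot12+/+ and from 1.89, 0.604 and 1.23 to 2.13, 2.34 and 2.22 FPKM in Acot12-/- libraries. The groups did not overlap, and the Acot12-/- call was lost without Acot12-/- CL replicate 2 (0.35, adjusted p = 0.0505) or without Acot12-/- UUO replicate 2 (0.54, adjusted p = 0.0589).

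Among the carriers of osmolytes and creatine, Slc6a13 and Slc6a8 fell, and the call of Slc6a6 depended on the fit. Slc6a13, which carries GABA and taurine, stood at 66.03, 48.8 and 66.8 FPKM (CL) and 15.9, 16.8 and 23.3 (UUO) in Acot12+/+ mice, and 97.01, 51.6 and 107 (CL) and 26.2, 10.9 and 25.5 (UUO) in Acot12-/- mice. It fell without overlap (log2 differences of -1.65 and -2.004, adjusted p = 0.00192 and 0.000375). Slc6a8, the creatine carrier, went from 47.2, 59.4 and 61.6 to 33.6, 36.5 and 37.8 in Acot12+/+ and from 99.8, 62.9 and 109 to 43, 37.3 and 37.3 in Acot12-/- libraries. Its log2 differences were -0.62 and -1.15 (adjusted p = 0.0226 and 0.000425), and the Acot12+/+ value turned to 0.10 under the scaling to equal totals. That call was also lost without Acot12+/+ CL replicate 2 or 3 or Acot12+/+ UUO replicate 1 or 2 (-0.63 to -0.55, adjusted p = 0.0564 to 0.0818). Slc6a6 had 39.3, 36.3 and 41.98 (CL) and 59.8, 62.6 and 43.1 (UUO) in Acot12+/+ and 61.01, 62.6 and 45.3 (CL) and 61.6, 74.3 and 50.5 (UUO) in Acot12-/- libraries, with differences of 0.47 (95% interval 0.04 to 0.90, adjusted p = 0.0693) and 0.14 (-0.29 to 0.56, adjusted p = 0.586). Its UUO libraries lay above the CL libraries in Acot12+/+ mice and overlapped them in Acot12-/- mice. In Acot12+/+ mice Slc6a6 was called higher with the kidneys of a mouse as a block (adjusted p = 0.0396) and without Acot12-/- CL replicate 2 (adjusted p = 0.0438). With equal totals it was called higher in both genotypes (1.19 and 0.68, adjusted p = 0.00134 and 0.0386).

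The 3 carriers grouped as lysosomal and endosomal were not called in either genotype with all libraries and FPKM as deposited. They include Slc38a9, the arginine sensor of the lysosome, at 1.64 to 2.495 FPKM over the 12 libraries, with differences of -0.13 (95% interval -0.39 to 0.13) and -0.06 (-0.32 to 0.20). Slc36a4, an amino acid carrier of intracellular membranes, stood at 0.919, 0.474 and 1.296 FPKM (CL) and 0.717, 0.748 and 0.654 (UUO) in Acot12+/+ and at 0.391, 1.13 and 0.325 (CL) and 0.873, 0.793 and 0.479 (UUO) in Acot12-/- libraries, with overlapping groups. Slc38a7, which exports glutamine from lysosomes, ranged from 4.61 to 8.49. Without Acot12-/- CL replicate 2 Slc38a7 was called lower in Acot12-/- kidneys (-0.43, adjusted p = 0.0128), and with equal totals it was called higher in Acot12+/+ kidneys. Of the 5 carriers linked to neurons, Slc1a2 (glutamate) and Slc6a9 (glycine) were higher in Acot12+/+ kidneys (0.84 and 1.01, adjusted p = 0.00102 and 0.00715), Slc6a4 (serotonin) was lower in Acot12-/- kidneys (-0.68, adjusted p = 0.00699, and -0.34 and not called under the scaling to equal totals), and Slc6a17 (neutral amino acids) and Slc1a3 (glutamate) were not called, although Slc1a3 was lower in Acot12-/- kidneys with the kidneys of a mouse as a block (-0.40, adjusted p = 0.0429). Slc6a15, a carrier of branched-chain amino acids and proline, was higher in Acot12+/+ kidneys (0.55, adjusted p = 0.0262), a call lost without Acot12+/+ CL replicate 1 or 2 or Acot12+/+ UUO replicate 2 or 3 (0.47 to 0.53, adjusted p = 0.0761 to 0.0936). Slc38a10, an abundant but little studied member, stood at 35.03, 31.5 and 36.04 FPKM (CL) and 22.99, 24.5 and 21.2 (UUO) in Acot12+/+ and at 47.05, 20.6 and 46.6 (CL) and 22.1, 26.1 and 20.6 (UUO) in Acot12-/- libraries. The groups overlapped only in Acot12-/- mice, through CL replicate 2. It differed by -0.56 and -0.62 and was not called (adjusted p = 0.0942 and 0.0593), but with the kidneys of a mouse as a block the Acot12-/- fall was called (adjusted p = 0.0439). Without Acot12-/- CL replicate 2 Slc38a10 was called lower in both genotypes (-0.56 and -1.01, adjusted p = 0.00113 and 5.6e-05), and with equal totals in neither (0.15 and -0.09). Slc7a12, a carrier of small neutral amino acids, had 33.1 FPKM in Acot12-/- CL replicate 2 and 1.90 to 9.70 in the other 11 libraries, and was not called in any comparison.

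Other genes of the same pathways were set beside these values. After UUO 23.9% of all genes were called higher and 22.6% lower in Acot12+/+, and 27.5% and 25.6% in Acot12-/- kidneys. Of 7 brush border peptidases, which split peptides into the amino acids that these carriers take up, 6 were lower in Acot12+/+ and 7 in Acot12-/- UUO kidneys (medians -1.77 and -1.81), among them Mep1a from 752 to 181 and from 840 to 197 FPKM. Of 17 other amino acid and peptide carriers and partners, 2 were higher and 5 lower in Acot12+/+, and 1 was higher and 10 lower in Acot12-/- kidneys. Slc15a2, the peptide carrier of the brush border, fell (log2 differences of -1.90 and -1.80, adjusted p = 0.000148 and 0.000138), and Slc15a3, a lysosomal peptide carrier of immune cells, rose by 1.23 and 2.07 (adjusted p = 0.000282 and 5.44e-06). Of 22 genes of the amino acid response driven by ATF4, 13 were higher and 3 lower in Acot12+/+ and 13 higher and 4 lower in Acot12-/- kidneys (medians 0.91 and 1.00). Asns, the asparagine synthetase, rose by 1.96 and 1.304 (adjusted p = 4.12e-05 and 0.000377) and Phgdh, which opens serine synthesis, by 1.79 and 1.21 (adjusted p = 0.000695 and 0.00608), whereas Psat1, of the same serine pathway, fell (log2 differences of -0.80 and -1.53, adjusted p = 0.0272 and 0.00048). Of 29 genes through which amino acids act on mTORC1, 2 were higher and 11 lower in Acot12+/+ and 2 higher and 13 lower in Acot12-/- kidneys (medians -0.33 and -0.39), Mtor itself falling in both (-1.40 and -1.75, adjusted p = 0.000138 and 1.93e-05).

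Between the genotypes, no carrier was called in UUO kidneys, where 0% of all genes were called higher and 0.014% lower in Acot12-/-. An unadjusted limma p under 0.05 was found for 391 of 14260 genes tested and for 2 carriers. These were Slc6a15, at 10.6, 8.38 and 9.23 FPKM in Acot12-/- and 11.4, 14.7 and 15.2 in Acot12+/+ UUO libraries (difference -0.50, 95% interval -0.90 to -0.11, unadjusted p = 0.0174), and Slc7a9 (0.50, 0.06 to 0.94, unadjusted p = 0.029), both with an adjusted p of 1. Slc6a15 was lower in all 3 Acot12-/- libraries, and the groups of Slc7a9 overlapped. Next came Slc43a1, a carrier of branched-chain amino acids, at 0.41, 1.06 and 0.763 in Acot12-/- and 0.376, 0.47 and 0.385 in Acot12+/+ libraries (0.29, unadjusted p = 0.068). All 3 Acot12-/- UUO libraries lay above the Acot12+/+ ones for 0 carriers and below for 4, against 5.53% and 6.5% of all genes. The median difference over the carriers was -0.0018. The interval of Slc7a13 was wide, from -1.25 to 2.11, and that of Slc3a1 ran from -0.46 to 0.45.

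In the CL kidney 4 carriers were higher and 1 was lower in Acot12-/- mice, against 0.996% of all genes called higher and 3.16% called lower. The library values of Slc7a8, Slc3a2, Slc6a19 and Slc7a9 are given above. For each of them all 3 Acot12-/- CL libraries lay above all 3 Acot12+/+ CL libraries. Slc7a8 was higher by 1.60 (SE 0.268, adjusted p = 0.00956), Slc3a2 by 1.28 (SE 0.223, adjusted p = 0.0112), Slc6a19 by 1.58 (SE 0.391, adjusted p = 0.044) and Slc7a9 by 0.87 (SE 0.202, adjusted p = 0.034). Slc43a3, which carries purine nucleobases and is abundant in endothelium, had 3.55, 5.73 and 3.86 FPKM in Acot12-/- and 10.1, 10.4 and 12.1 in Acot12+/+ CL libraries. All of its Acot12-/- CL libraries were below all Acot12+/+ ones (-1.16, SE 0.188, adjusted p = 0.0086). In all, the Acot12-/- CL libraries lay above the Acot12+/+ CL libraries for 13 carriers and below for 1, against 8.24% and 10.4% of all genes. The basolateral carriers had a median of 0.57, the brush border carriers of 0.57 and the growth linked ones of -0.13, beside -0.0028 over all genes.

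**Figure D4:**
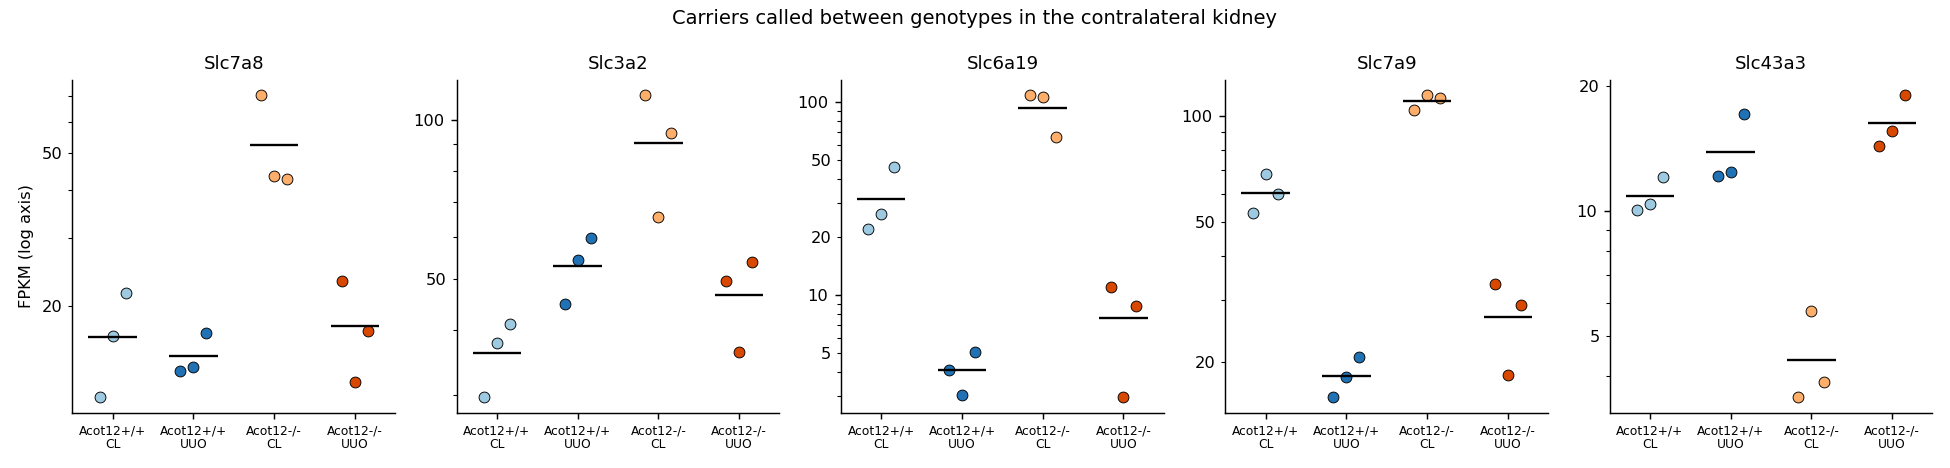
FPKM (y axis, log scale) by group (x axis) of the 5 carriers called between the genotypes in the CL kidney; points are libraries and lines the means of 3. Slc7a8, Slc3a2, Slc6a19 and Slc7a9 are higher and Slc43a3 is lower in all 3 Acot12-/- CL libraries than in the Acot12+/+ CL libraries, while no carrier is called between the genotypes in UUO.

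These calls depended on the model and on single libraries. With only the CL libraries fitted, no carrier was called by limma (adjusted p = 0.0845 to 0.1 for the 5). In the fit of all groups an unadjusted limma p under 0.05 was found for 14 of 41 carriers and for 2458 of 14260 genes tested. With a library left out, 1 to 11 carriers were higher. Slc7a8 and Slc43a3 stayed called in each of these 12 fits, the call of Slc3a2 was lost in 1 (without Acot12+/+ CL replicate 1, 1.15, adjusted p = 0.052), and those of Slc6a19 (1.36 to 1.58, adjusted p = 0.0577 to 0.171) and Slc7a9 (0.78 to 0.96, adjusted p = 0.0531 to 0.142) in 7 each. Without Acot12-/- CL replicate 2 the 11 were Slc3a1, Slc3a2, Slc6a8, Slc6a19, Slc7a4, Slc7a7, Slc7a8, Slc7a9, Slc38a7, Slc38a10 and Slc43a2, with Slc43a3 and Slc38a6 lower, while 10.5% and 9.92% of all genes were called. Only 1 was called higher without Acot12+/+ CL replicate 1, and 2 without Acot12+/+ CL replicate 2, Acot12+/+ UUO replicate 1 or 2, or Acot12-/- CL replicate 1. Markers of other cells moved in the same comparison: 7 of 8 endothelial, 5 of 9 macrophage, 4 of 7 lymphocyte and 2 of 9 fibroblast genes were lower in Acot12-/- CL kidneys, and the summed endothelial FPKM was 63.1 to 95.9 against 183 to 290. No proximal tubule marker was called, their median being 0.63, and their summed FPKM was 3166 to 6298 against 2535 to 4002. The part of these cells in the differences of the carriers was not tested.

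The response to UUO itself was compared between the genotypes by an interaction term, for which 0.0842% of all genes were called higher and 0% lower. No carrier was called by limma. An unadjusted limma p under 0.05 was found for 1506 of 14260 genes tested and for 11 of the 41 carriers. Among the carriers the smallest belonged to Slc43a3, Slc3a2 and Slc7a8. Slc43a3 had 12.2, 12.5 and 17.1 FPKM in Acot12+/+ UUO and 14.4, 15.6 and 19.1 in Acot12-/- UUO libraries, so the groups that stood apart were the CL ones, and the interaction was 1.38 (95% interval 0.81 to 1.96, adjusted p = 0.0651). It was -1.48 for Slc3a2 (-2.16 to -0.79, adjusted p = 0.0926) and -1.38 for Slc7a8 (-2.21 to -0.56, adjusted p = 0.157). With the kidneys of a mouse as a block, Slc43a3 (adjusted p = 0.024) and Slc3a2 (adjusted p = 0.0297) were called, while 1.17% of all genes were called higher and 0.112% lower. Without Acot12-/- CL replicate 2, Slc43a3 was called higher and Slc3a2, Slc6a8, Slc6a9 and Slc38a7 lower, while 3.527% of all genes were called higher and 2.525% lower. Carriers called in a single genotype (Slc1a2, Slc6a9, Slc6a15 and Slc38a2 in Acot12+/+ and Slc3a2, Slc6a4, Slc7a8, Slc38a6, Slc43a1 and Slc43a3 in Acot12-/- kidneys) were thus not shown to differ between the genotypes in the fit without the block. Endothelial markers again moved alongside: 1 of 8 was higher in the interaction, with a median of 1.33.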

How the data were processed

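Kidney cortex RNA of 12 libraries (4 groups of 3) was sequenced. The authors deposited a file of FPKM values per gene for each library. The unit was read from the values, and mm10 and edgeR are named in the submitters' processing notes; the counter and its strand setting are not given in the sources used here. Fold changes were computed from log2(FPKM + 1) with limma 3.58.1 (R 4.3.3): 1 mean per group, empirical Bayes with a variance trend, over 14260 genes with at least 0.5 FPKM in at least 3 libraries, after leaving out 58 genes listed at 0 beside at least 10 FPKM in the same group. P-values were Benjamini-Hochberg adjusted, and a gene was called under 0.05. Intervals are 95%. Sums and ratios were compared by two-sided exact permutation tests (Python 3.11.15, pandas 2.3.3, NumPy 2.4.6, SciPy 1.17.1), and plots were drawn with Matplotlib 3.10.9. The fits were tested on simulated data.

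The members, roles, gene lists and tests were chosen with earlier results of these data known. Values in every library were given for the 2 carriers of each family with the highest mean FPKM, for the 6 largest rises and 6 largest falls (mean of both genotypes) among carriers called the same way in both, for those called between genotypes or else the 3 with the smallest p, and for Slc3a1 and Slc3a2; carriers beyond that rule were named once their values were known. The numbers of the replicates were taken to pair the kidneys of a mouse, since the deviations of same-numbered libraries correlated at 0.136, 0.352 and 0.323 in Acot12+/+ and at 0.314, 0.184 and 0.309 in Acot12-/- mice, while differently numbered ones reached at most 0.123 and -0.0747. The labels do not state the pairing. The block was fitted with a consensus correlation of 0.2. Other alternatives were a pseudocount of 0.1, a filter at 1 FPKM or none, median-ratio size factors, equal total FPKM, only the groups compared, no variance trend, keeping the genes listed at 0, and leaving out each library; exact sign permutation within the pairs and family sums at equal total FPKM were added after seeing the data. Depth limits precision mainly for carriers at low FPKM, where 1 fragment per kilobase is worth 0.0435 to 0.0807 FPKM.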

Additional observations from a re-analysis of the deposited data

How the results depend on the processing

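With 3 libraries a group, calls near the threshold moved with single libraries. With 1 library left out at a time, 9 to 13 carriers were higher and 10 to 14 lower after UUO in Acot12+/+ kidneys, 9 to 11 and 15 to 19 in Acot12-/- kidneys, 1 to 11 higher and 1 to 2 lower between genotypes in CL kidneys, 0 and 0 in UUO kidneys, and 0 to 1 higher and 0 to 4 lower for the interaction. Of 14260 genes tested, the same fits called 2659 to 4377 higher and 2478 to 4184 lower in Acot12+/+ kidneys, and 3234 to 4307 and 2959 to 4543 in Acot12-/- kidneys. Between genotypes in CL they called 28 to 1496 higher and 153 to 1414 lower, and for the interaction 0 to 503 and 0 to 360. With only the groups compared, the CL genotype counts were 0 higher and 0 lower. Equal total FPKM gave 17 higher and 7 lower in Acot12+/+ kidneys and turned Slc43a2 to 0.086 and Slc6a8 to 0.10. Summed FPKM differed by -1.36 in Acot12+/+ and -1.66 in Acot12-/- kidneys alone, where p = 0.1 is the smallest the exact permutation test can give. The ratio of Slc7a9 to Slc3a1, near 0, was -0.016 at a pseudocount of 0.1 and -0.0991 to 0.118 with a library left out. The causes were not tested.

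With the kidneys of a mouse as a replicate block, 13 carriers were higher and 13 lower in Acot12+/+ kidneys, 11 and 18 in Acot12-/- kidneys, 4 and 1 between genotypes in CL, 0 and 0 in UUO, and 1 and 1 for the interaction. The shares of all genes, in the same order, were 26.5% and 25.4%, 29.7% and 28%, 1.003% and 3.18%, 0% and 0%, and 1.17% and 0.112%. Apart from the interaction, the block moved no count of carriers called by more than 1.5 times. Permuting the signs of the same-numbered pairs, chosen after seeing the data, left the ratios of Slc7a13 to Slc3a1 (-2.24), Slc7a5 (1.53), Slc7a7 (-1.34) and Slc7a8 (-0.62) to Slc3a2 above the threshold (adjusted exact p = 0.0521 to 0.0781).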

Other observations

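Among the 20 carriers below the level of description, which entered no comparison, several had low but patterned values. Slc6a12, the betaine and GABA carrier of the medulla, had 1.28, 0.416 and 0.461 FPKM (CL) and 0.056, 0 and 0.058 (UUO) in Acot12+/+ mice, and 0.429, 0.653 and 0.369 (CL) and 0.097, 0.023 and 0.062 (UUO) in Acot12-/- mice. All 6 of its UUO libraries lay below all 6 CL libraries. Slc7a3, an arginine carrier, had 0.036, 0.119 and 0.07 (CL) and 0.448, 0.369 and 0.284 (UUO) in Acot12+/+ and 0.098, 0 and 0.03 (CL) and 0.287, 0.449 and 0.329 (UUO) in Acot12-/- libraries. Slc7a11, the cystine and glutamate exchanger, stood at 0.058, 0.045 and 0.008 (CL) and 0.135, 0.177 and 0.155 (UUO) in Acot12+/+ and at 0.052, 0.086 and 0.007 (CL) and 0.218, 0.234 and 0.091 (UUO) in Acot12-/- libraries. For both, all 6 UUO libraries lay above all 6 CL libraries. These values rest on few fragments, were picked after they were seen, and were not tested.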
